A study of Homo sapiens with 12 samples.

Results

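The ribosome biogenesis factors are 54 nucleolar genes of rRNA synthesis, rRNA processing and subunit assembly, chosen by their symbols from a list of such genes whose functions are known to depend on MYC. They were found in 55 of the 58233 rows of the expression table, because EMG1 has a second row that is listed at 0 in every library, and the higher of both rows was used. Their RNA levels were measured in HL-60 cells, an established human acute myeloid leukaemia (AML) cell line without the PML-RARA fusion. The cells were untreated, given 100 nM all-trans retinoic acid (ATRA, a ligand of the retinoic acid receptors), given 500 nM palbociclib (which inhibits CDK4 and CDK6), or given both agents, each for 3 h, with 3 poly(A) RNA libraries per group. All 12 libraries came from 1 cell line, and rRNA and its precursors were not measured. By the study's methods, barcoded triplicates were made of each condition and experiments were independent unless stated otherwise. The labels do not say whether these replicates were separate cultures, so the p-values measure the spread between these libraries, which may be technical.

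Ribosomes are built in the nucleolus. RNA polymerase I (Pol I) transcribes a long rRNA precursor, small nucleolar ribonucleoproteins (snoRNPs) guide the modification of its bases and riboses, and assembly factors, helicases and nucleases fold, cut and release the small and the large subunit. Proliferating leukaemic cells have a high demand for ribosomes, and the transcription factor MYC, which binds E-box letters such as CACGTG in DNA, is a known activator of many of these genes.

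The values are RPKM (reads scaled by gene length and library size), rounded by the authors to whole numbers. Tested were genes that reached 5 RPKM in 3 or more libraries, which 7820 genes and 52 of the 54 factors did. Log2 fold changes are on the scale of log2(RPKM + 0.1), which understates the change of low genes, and a gene was called at a Benjamini-Hochberg adjusted p under 0.05 in limma, fitted over all tested genes and all 12 libraries. EMG1, a methyltransferase of small subunit rRNA, had 3 to 5 RPKM over the 12 libraries and was not tested. UTP15, a subunit of the complex that starts processing of the precursor, was not tested either, and had 4 to 5 RPKM in untreated cells, 4 in every palbociclib library and 3 in every library given ATRA, alone or combined. In untreated cells the median level of the 54 factors was 38 RPKM, against 12.7 RPKM over the tested genes, and 50 factors lay above that median.

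Over each library, the summed values were between 358455 and 390247 RPKM. The supplementary methods give an average read number per sample, and the depth of each single library is unknown. Of 8 myeloid markers, MPO was the highest at 1077 to 1579 RPKM and ELANE was at 0 or 1 RPKM in each library, and the summed level of the 8 was 1601 to 1829 RPKM in untreated, 1514 to 1700 in ATRA, 1776 to 1998 in palbociclib and 1540 to 1780 in combination libraries. That sum was mostly MPO, which was lower in every ATRA library than in every untreated one (means 1133 and 1346 RPKM). CTSG and CD33 also had lower ATRA means (15.7 against 21 and 6.67 against 7.33 RPKM), and PRTN3 a higher one (276 against 222), each with overlap. AZU1, SPI1 and CEBPA were higher in every ATRA library than in every untreated one, at means of 19, 105 and 52.7 against 13.3, 83.7 and 34.7 RPKM. The same genes were higher in every palbociclib library too, at means of 18.7, 96.7 and 38 RPKM. Of 8 markers of other cell types, 7 were at 0 in every library, and PECAM1, which early myeloid cells also carry, had 2 RPKM in each untreated, 2 to 3 in palbociclib and 4 to 6 in ATRA-containing libraries.

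After 3 h with ATRA, 21 of the 52 tested factors had fallen and 0 had risen. That is 40.4% of the factors, while 11.6% of all tested genes were called lower and 8.71% higher. Of the factors, 50 lay below zero, with a median log2 fold change of -0.31 against -0.01 over all tested genes, so the typical factor stood at 80.6% of its untreated level. The ATRA count was 13 without ATRA replicate 2 (7.53% of all tested genes lower) and 13 under median centring, where 6.84% of all tested genes were lower and 8.9% higher. With both agents 25 factors had fallen and 0 had risen, which is 48.1% of the factors against 17.7% of all tested genes called lower and 12.7% higher. Their median log2 fold change was -0.34, against -0.01 over all tested genes, and under median centring the count was 15, with 10.1% of all tested genes lower and 14.7% higher. All 3 treated libraries lay below all 3 untreated ones for 33 of the 52 factors with ATRA, against 17.3% of all tested genes, and for 34 with the combination, against 20.6%. A ranking of all tested genes by log2 fold change placed 41 factors among the lowest 25% of genes with ATRA and 36 with the combination, while for palbociclib 16 were there.

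**Figure D1:**
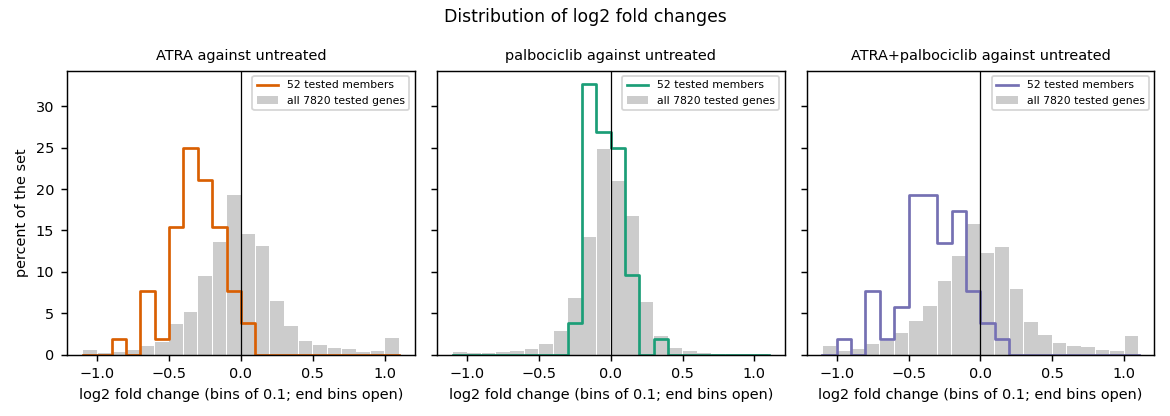
Share of genes (y axis, percent of the set) by log2 fold change against untreated cells (x axis, bins of 0.1, end bins open) for the 52 tested factors (line) and all 7820 tested genes (grey bars) with ATRA, palbociclib and both. The factors' medians are -0.31, -0.05 and -0.34, and their distribution lies to the left of the grey bars in the panels with ATRA.

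Palbociclib alone called 0 of 52 factors in either direction by limma, with 3.16% of all tested genes called lower and 0.908% higher. At an unadjusted p under 0.05, 6 factors were lower and 0 higher, against 10.1% of all tested genes lower at that p. The 6 were UBTF, NOLC1, WDR43, TSR1, NOC3L and RRP1B, with log2 fold changes between -0.25 and -0.14. Over the 52 factors the median was -0.05, with 33 below zero and 19 above, and this direction depended on the scaling: under median centring 23 factors were below zero and the median was 0.03. Libraries of untreated and palbociclib-treated cells did not overlap for 4 factors that were lower (9.48% of all tested genes) and 2 that were higher (5.74%). Among the lower ones, RRP1B had 46, 42 and 41 RPKM untreated and 35, 37 and 36 with palbociclib, and its adjusted p was 0.0836 in limma. FTSJ3 and NHP2 were the factors whose 3 palbociclib libraries exceeded every untreated one, by margins of 1 RPKM each.

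Added to ATRA, palbociclib moved none of the factors past the threshold. In limma 0 of 52 differed between the combination and ATRA, while 0.115% of all tested genes were called lower and 0% higher. At an unadjusted p under 0.05 the count was also 0, against 3.67% of all tested genes. The factors' differences lay between -0.14 and 0.13 with standard errors of 0.048 to 0.214, and 28 were below zero. Blocking on the replicate number gave 0 as well. The departure from additivity, defined as the palbociclib effect in ATRA-treated cells less that in cells without ATRA, was called for 0 of 52 factors and for 0% of all tested genes in each direction. At an unadjusted p under 0.05 it was 0 factors, against 3.02% of all tested genes. The median departure over the factors was 0.04 and took the other sign, -0.06, when combination replicate 1 was left out.

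Compared with palbociclib alone, the combination lowered 17 of 52 factors and raised 0, or 32.7% of the factors against 6.64% of all tested genes called lower and 5.86% higher. Same-numbered treated libraries deviated together, but libraries of different numbers were not compared, so pairing by the number is not shown. In a fit blocked on that number 36 factors were lower, against 13.4% of all tested genes. One factor, UBTF, was then higher (log2 fold change 0.21, adjusted p 0.00216 in limma with the block), where 10.1% of all tested genes were. The count without the block was 8 when palbociclib replicate 3 was left out, 10 without combination replicate 2, and 11 without combination replicate 3 or without palbociclib replicate 1. Over all tested genes 4.08%, 4.31%, 4.77% and 6.59% were called lower in these fits, in the same order.

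The calls with ATRA and with the combination, which share their untreated libraries, had 20 factors in common. These were 95.2% of the 21 ATRA calls and 80% of the 25 combination calls. NOB1 was called with ATRA and missed the threshold with the combination (adjusted p 0.0915 in limma), and GRWD1, IMP4, MRTO4, NCL and UTP20 were called with the combination and missed it with ATRA, at adjusted p-values between 0.0528 and 0.0973. Since no factor differed between both treatments in limma, these lists do not show a difference between them.

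**Figure D2:**
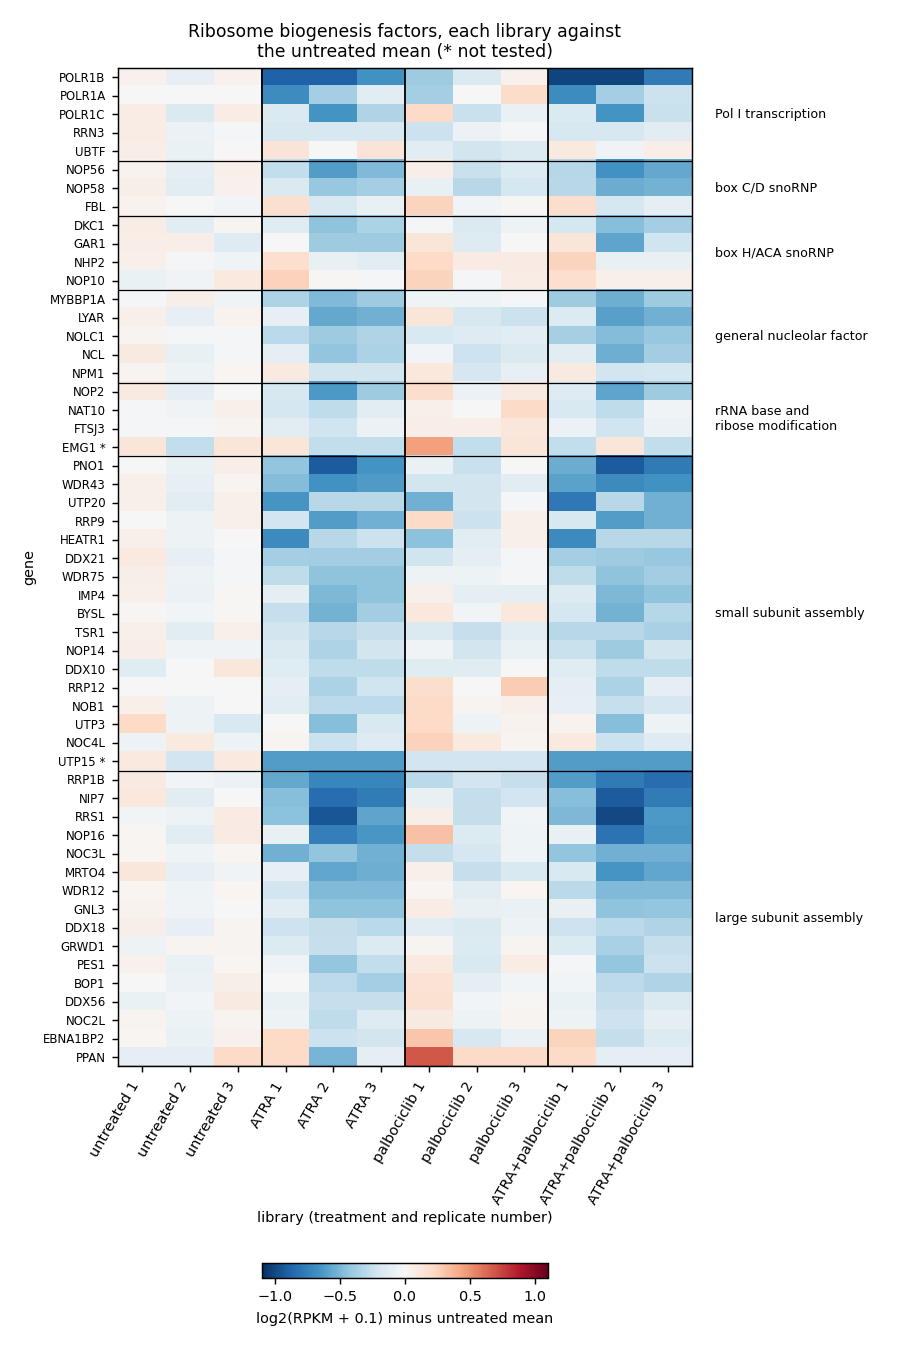
Log2(RPKM + 0.1) of each of the 54 factors (rows, grouped by role) in each of the 12 libraries (columns), as the difference from the mean of the untreated libraries (colour, blue lower and red higher); an asterisk marks the 2 factors that were not tested. Blue fills most of the ATRA and combination columns, for most factors deeper in replicates 2 and 3 than in replicate 1, and the palbociclib columns are pale.

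In the RefSeq promoter windows, which run from 250 bases before to 50 bases after an annotated start (GRCh38.p14), the letters CACGTG were looked up because they are the E-box that MYC binds. CACGTG is its own reverse complement, so 1 search covers both strands. Of the 54 factors, 47 had a window, and 20 of these (42.6%) held the letters, against 740 of 5256 tested genes (14.1%) and 2396 of 27305 genes with any window (8.77%). Among 102 other ribosome biogenesis genes with a window, 27 held the letters (26.5%). Counted by window, since a gene can have several, it was 21 of 58 windows of the factors (36.2%) and 2548 of 35116 of all (7.26%). The position differed as well. Downstream of the start lay 14 of 23 occurrences in the factors' windows (60.9%), and 312 of 2821 in all windows (11.1%). The factors were listed for functions known to depend on MYC, so a higher share of these letters may come with that choice. No conclusion on MYC is drawn from it.

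The 5 factors with the letters and the largest change under the combination are given here to place the motif, from 5′ to 3′ on the gene's strand, with the capitals marking CACGTG. Their windows are PNO1 (chr2:68157638-68157937, plus strand), WDR43 (chr2:28894417-28894716, plus strand), UTP20 (chr12:101279855-101280154, plus strand), NOC3L (chr10:94362890-94363189, minus strand) and MRTO4 (chr1:19251555-19251854, plus strand). Counting the first transcribed base as 0, the motif begins at 9 in PNO1, 3 in WDR43, -10 in UTP20, 19 in NOC3L and 14 in MRTO4.
PNO1: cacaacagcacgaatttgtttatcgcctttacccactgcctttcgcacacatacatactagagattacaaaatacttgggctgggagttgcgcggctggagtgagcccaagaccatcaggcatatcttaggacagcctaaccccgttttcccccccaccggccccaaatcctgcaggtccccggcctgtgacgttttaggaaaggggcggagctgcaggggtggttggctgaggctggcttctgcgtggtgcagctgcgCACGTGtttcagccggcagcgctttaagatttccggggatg
WDR43: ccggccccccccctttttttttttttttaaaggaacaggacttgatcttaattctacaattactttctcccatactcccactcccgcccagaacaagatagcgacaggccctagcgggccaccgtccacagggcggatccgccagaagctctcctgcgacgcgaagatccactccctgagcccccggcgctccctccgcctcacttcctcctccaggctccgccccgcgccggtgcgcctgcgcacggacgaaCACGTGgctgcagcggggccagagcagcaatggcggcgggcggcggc
UTP20: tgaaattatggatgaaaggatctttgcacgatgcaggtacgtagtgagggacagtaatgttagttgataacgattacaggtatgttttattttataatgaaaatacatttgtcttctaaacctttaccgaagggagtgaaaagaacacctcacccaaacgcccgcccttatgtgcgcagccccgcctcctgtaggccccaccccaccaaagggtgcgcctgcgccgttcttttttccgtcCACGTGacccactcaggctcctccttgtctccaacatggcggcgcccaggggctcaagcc
NOC3L: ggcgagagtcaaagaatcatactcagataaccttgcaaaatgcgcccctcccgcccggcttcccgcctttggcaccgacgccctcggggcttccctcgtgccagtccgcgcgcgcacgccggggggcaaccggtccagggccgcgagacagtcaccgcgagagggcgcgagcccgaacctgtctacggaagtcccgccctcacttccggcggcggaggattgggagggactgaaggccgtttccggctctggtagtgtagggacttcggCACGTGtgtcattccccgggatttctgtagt
MRTO4: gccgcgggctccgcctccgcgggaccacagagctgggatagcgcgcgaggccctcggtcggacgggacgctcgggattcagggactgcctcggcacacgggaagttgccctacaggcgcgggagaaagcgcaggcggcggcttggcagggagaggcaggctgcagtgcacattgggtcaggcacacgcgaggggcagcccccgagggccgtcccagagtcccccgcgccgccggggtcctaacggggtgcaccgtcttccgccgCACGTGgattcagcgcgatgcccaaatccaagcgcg
The log2 fold changes of these genes with the combination were between -0.75 (PNO1) and -0.46 (MRTO4).

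Over the 20 factors with the letters the median log2 fold change was -0.38 under ATRA and -0.37 under the combination, and the 25 tested factors whose windows lacked them had -0.23 and -0.25. Called lower with ATRA were 8 of the former and 8 of the latter, and with the combination 11 and 9. BOP1, DDX18, NOLC1, NOP58, RRP12, RRP1B and RRS1 had no window and stand outside this split, and 5 of these 7 were called lower with ATRA and with the combination. FBL and NOP10 hold the letters and had log2 fold changes of -0.03 and 0.09 with ATRA. A match of 6 letters is a description of the sequence and says nothing on binding, and MYC binding was not measured.

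MYC itself had 168, 184 and 205 RPKM in untreated cells, 72, 73 and 103 with ATRA, 171, 174 and 203 with palbociclib and 72, 70 and 107 with both. Every library with ATRA was below every library without it. Its log2 fold change was -1.18 ± 0.18 (SE) with ATRA (adjusted p 0.000922 in limma) and -1.18 ± 0.18 with the combination (adjusted p 0.000612), while with palbociclib it was -0.02 ± 0.18 (adjusted p 1).

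Among the 5 factors of Pol I transcription, POLR1B fell and the other 4 were not called. POLR1B encodes the second largest subunit of Pol I. It had 23, 21 and 23 RPKM in untreated cells, 12, 12 and 14 with ATRA, 17, 20 and 23 with palbociclib and 11, 11 and 13 with both. The ATRA-containing libraries were all lower than the others, and POLR1B had the largest fall of the 52 factors, to 56.8% of untreated with ATRA (log2 fold change -0.82 ± 0.11 SE, adjusted p 0.000556 in limma) and 52.3% with both (-0.93 ± 0.11, adjusted p 0.000141). The largest subunit, POLR1A, stood at 13 RPKM in each untreated library and at 8, 10 and 12 with ATRA (adjusted p 0.14), and POLR1C, shared with Pol III, at 17 to 20 and 12 to 17 (adjusted p 0.136). RRN3, which recruits the polymerase to the rDNA promoter, had 27 to 30 RPKM untreated and 25 in each ATRA library (adjusted p 0.0735).

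UBTF, which binds along the rDNA repeat and holds it in an active state, differed from its neighbours in the list. It had 40, 36 and 38 RPKM untreated, 42, 38 and 42 with ATRA, 35, 33 and 34 with palbociclib and 41, 37 and 40 with both. Its ATRA value was the highest log2 fold change of the 52 factors with that agent (0.10 ± 0.06 SE, adjusted p 0.323 in limma), and its 3 palbociclib libraries lay below all untreated ones (-0.16 ± 0.06, adjusted p 0.218).

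Box C/D snoRNPs place ribose methyl groups on rRNA, with FBL (fibrillarin) as the methyltransferase and NOP56 and NOP58 as the core proteins that hold the guide RNA. Both core proteins fell and FBL was not called. NOP56 had 88, 80 and 89 RPKM in untreated cells, 71, 56 and 61 with ATRA, 90, 72 and 77 with palbociclib and 69, 54 and 58 with both. Its groups with ATRA did not overlap the untreated one, at log2 fold changes of -0.46 ± 0.12 SE (adjusted p 0.0185 in limma) and -0.51 ± 0.12 (adjusted p 0.00742). The values of NOP58 were 84, 74 and 83 RPKM untreated, 72, 60 and 62 with ATRA and 65, 55 and 56 with both, which gave -0.31 ± 0.09 (adjusted p 0.0379) and -0.45 ± 0.09 (adjusted p 0.00436). FBL had 179 to 188 RPKM untreated and 163 to 207 with ATRA, its replicate 1 above and its replicates 2 and 3 below the untreated range (log2 fold change -0.03 ± 0.11, adjusted p 0.915).

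Box H/ACA snoRNPs convert uridines of rRNA to pseudouridine. DKC1 (dyskerin), the pseudouridine synthase, was the 1 factor of 4 that fell. Its levels were 85, 74 and 82 RPKM untreated, 73, 59 and 63 with ATRA, 79, 72 and 77 with palbociclib and 70, 58 and 62 with both. ATRA libraries lay below the untreated ones by a margin of 1 RPKM, and the log2 fold changes were -0.31 ± 0.09 SE (adjusted p 0.04 in limma) and, with both agents, -0.34 ± 0.09 (adjusted p 0.0177). The small structural proteins of the same particle were not called, with log2 fold changes under ATRA of -0.26 for GAR1, -0.01 for NHP2 and 0.09 for NOP10. NOP10 had 185 to 210 RPKM untreated and 193 to 232 with ATRA, and NHP2 40 to 43 and 38 to 47.

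Of 5 general nucleolar proteins, NOLC1 and MYBBP1A fell in both groups with ATRA and NCL with the combination. NOLC1, a phosphoprotein that chaperones snoRNPs, had 135, 131 and 131 RPKM untreated, 108, 101 and 105 with ATRA, 118, 120 and 122 with palbociclib and 103, 95 and 99 with both. Untreated libraries were highest, palbociclib ones came next and those with ATRA were lowest, without overlap between the 3 levels, and the log2 fold changes were -0.34 ± 0.05 SE with ATRA (adjusted p 0.000613 in limma) and -0.42 ± 0.05 with both (adjusted p 9.84e-05). MYBBP1A, a MYB-binding nucleolar protein, had 39, 41 and 38 RPKM untreated, 31, 28 and 30 with ATRA, 38, 38 and 39 with palbociclib and 30, 27 and 30 with both. That is 75.5% of the untreated level with ATRA (adjusted p 0.000822) and 73.7% with both (adjusted p 0.000319).

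NCL (nucleolin), a major RNA-binding protein of the nucleolus, had 293, 259 and 271 RPKM untreated, 255, 203 and 215 with ATRA and 253, 189 and 210 with both. Its log2 fold change was -0.34 ± 0.11 SE with both agents (adjusted p 0.043 in limma) and -0.30 ± 0.11 with ATRA (adjusted p 0.0956). NPM1 (nucleophosmin), the most abundant of the 54 factors at 576 to 611 RPKM untreated, had 519 to 641 with ATRA and was not called (-0.10 ± 0.11, adjusted p 0.587). By name, 49 pseudogenes of NPM1 are annotated, so its value may be uncertain, which was not tested. LYAR, a nucleolar regulator of cell growth, had 54 to 60 RPKM untreated and 39 to 54 with ATRA (adjusted p 0.0927).

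The 3 tested enzymes of rRNA base and ribose modification were not called against untreated cells. NOP2, a cytosine methyltransferase of large subunit rRNA, had 45, 39 and 42 RPKM untreated and 37, 27 and 32 with ATRA, without overlap, and missed the threshold (log2 fold change -0.40 ± 0.13 SE, adjusted p 0.0562 in limma). Of its exonic length, 54.4% is shared with another gene on the same strand. NAT10, the cytidine acetyltransferase, had 59 to 63 RPKM untreated and 50 to 56 with ATRA (adjusted p 0.0934). FTSJ3, a methyltransferase of the large subunit precursor, was called between the combination and palbociclib, at 29, 26 and 29 RPKM against 32, 32 and 33 (log2 fold change -0.21 ± 0.06, adjusted p 0.043). That call was lost without any of 9 libraries (up to 0.158), which were all but ATRA replicates 2 and 3 and combination replicate 1.

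**Figure D3:**
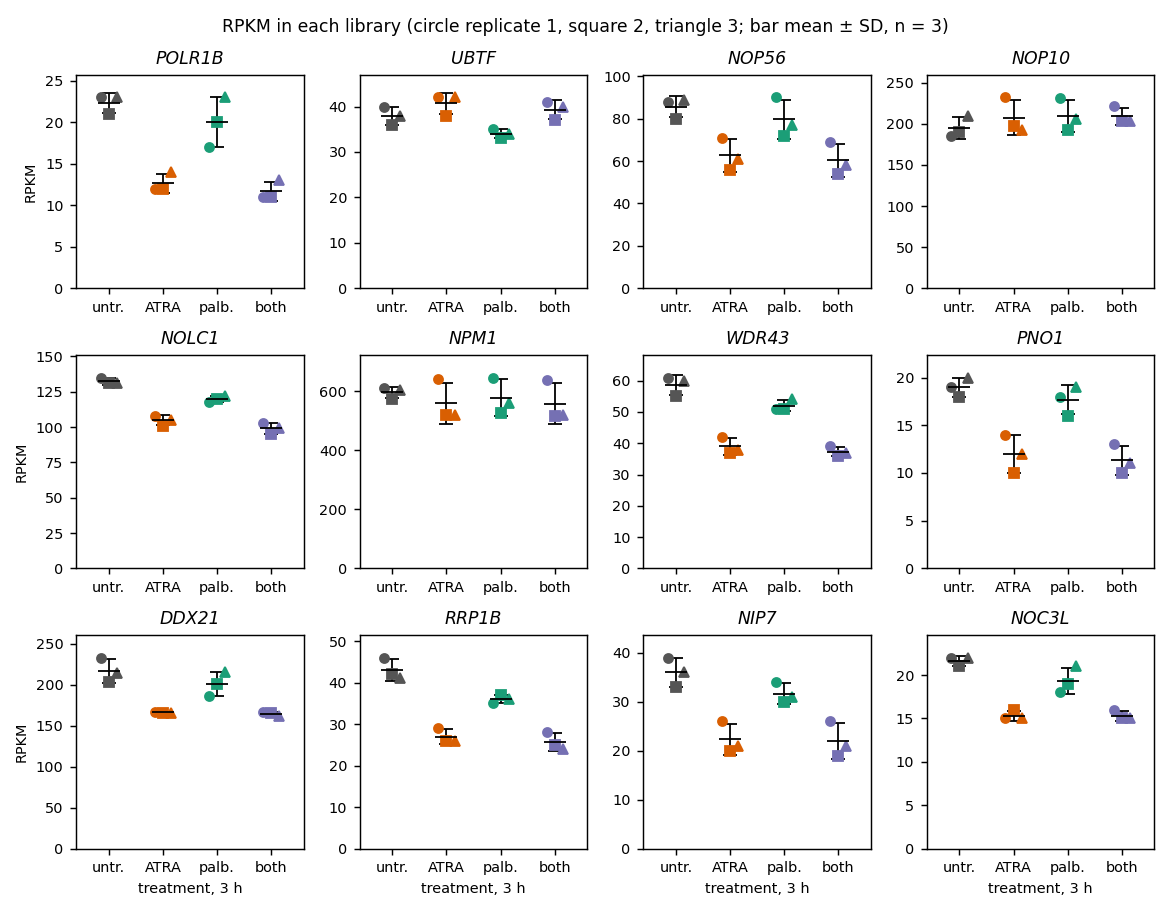
RPKM (y axes, starting at 0) of 12 factors in each library by treatment (x axes; untr., untreated; palb., palbociclib; both, ATRA+palbociclib), with 1 symbol per replicate number and the mean ± SD of 3 libraries as bars. POLR1B, NOP56, NOLC1, WDR43, PNO1, DDX21, RRP1B, NIP7 and NOC3L lie lower in every library with ATRA than in every untreated one, while UBTF, NOP10 and NPM1 overlap.

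Small subunit assembly was the role with the most calls, at 9 of 16 tested factors with ATRA and 10 of 16 with the combination, and all 16 lay below zero in both. WDR43, a subunit of the early complex on the precursor that is coupled to Pol I transcription, had 61, 55 and 60 RPKM untreated, 42, 37 and 38 with ATRA, 51, 51 and 54 with palbociclib and 39, 36 and 37 with both. The lowest untreated library was 13 RPKM above the highest ATRA one. Its fall was to 66.5% with ATRA (log2 fold change -0.59 ± 0.06 SE, adjusted p 0.000106 in limma) and to 63.7% with both (-0.65 ± 0.06, adjusted p 3.72e-05). WDR75, of the same complex, had 37, 34 and 35 RPKM untreated, 29, 26 and 26 with ATRA and 29, 26 and 27 with both, with log2 fold changes of -0.39 ± 0.06 (adjusted p 0.0014) and -0.37 ± 0.06 (adjusted p 0.00126).

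PNO1, which helps to hold the 3′ end of the small subunit precursor until its last cut, fell furthest in this role. It had 19, 18 and 20 RPKM untreated, 14, 10 and 12 with ATRA, 18, 16 and 19 with palbociclib and 13, 10 and 11 with both. Its ATRA and untreated libraries were apart by 4 RPKM, and the log2 fold changes were -0.67 ± 0.13 SE with ATRA (adjusted p 0.0039 in limma) and -0.75 ± 0.13 with both (adjusted p 0.00136).

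DDX21, an RNA helicase that links Pol I transcription and processing, had 233, 203 and 214 RPKM untreated, 167, 166 and 166 with ATRA, 186, 201 and 215 with palbociclib and 167, 165 and 162 with both. The 6 libraries with ATRA lay between 162 and 167 RPKM, at least 36 below any untreated one. The log2 fold changes were -0.38 ± 0.06 SE (adjusted p 0.00201 in limma) and -0.39 ± 0.06 (adjusted p 0.00103). TSR1, a late assembly factor related to translation GTPases, had 36, 32 and 36 RPKM untreated, 30, 28 and 29 with ATRA, 31, 29 and 32 with palbociclib and 28, 28 and 27 with both. The log2 fold change of TSR1 was -0.26 ± 0.06 with ATRA (adjusted p 0.0137) and -0.32 ± 0.06 with both (adjusted p 0.00263).

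Also called in both groups with ATRA were BYSL (log2 fold change -0.38 with ATRA), RRP9 (-0.45), a protein of the U3 snoRNP, and NOP14 (-0.23). NOB1, the nuclease of the last cut, was called with ATRA and not with the combination (46, 41 and 41 RPKM with ATRA against 52, 48 and 50 untreated), and IMP4 and UTP20, parts of the U3-containing processome, with the combination (log2 fold changes -0.36 and -0.54). HEATR1, RRP12, DDX10, UTP3 and NOC4L were below zero and were not called, with log2 fold changes under ATRA between -0.41 (HEATR1, 27, 25 and 26 RPKM untreated and 16, 21 and 22 with ATRA) and -0.11 (NOC4L). RRP12 was called between the combination and palbociclib (log2 fold change -0.34, adjusted p 0.0333 in limma), a call lost without ATRA replicate 3, combination or untreated replicate 2 or 3, or palbociclib replicate 1 or 3 (up to 0.132).

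Of the 16 tested factors of large subunit assembly, 6 fell with ATRA and 8 with both agents. RRP1B, which acts with chromatin and the early large subunit precursor, had 46, 42 and 41 RPKM untreated, 29, 26 and 26 with ATRA, 35, 37 and 36 with palbociclib and 28, 25 and 24 with both. Palbociclib values lay between the untreated and the ATRA ones with no overlap. RRP1B stood at 62.9% of untreated with ATRA (log2 fold change -0.67 ± 0.07 SE, adjusted p 0.000107 in limma) and 59.7% with both (-0.74 ± 0.07, adjusted p 3.63e-05), the lowest adjusted p of the 52 factors. NOC3L, a factor for export of the precursor that also takes part in DNA replication, had 22, 21 and 22 RPKM untreated, 15, 16 and 15 with ATRA, 18, 19 and 21 with palbociclib and 16, 15 and 15 with both. Its log2 fold change was -0.50 ± 0.06 in each of the groups with ATRA (adjusted p 0.000358 and 0.000228).

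NIP7, which binds the precursor late in assembly, had 39, 33 and 36 RPKM untreated, 26, 20 and 21 with ATRA, 34, 30 and 31 with palbociclib and 26, 19 and 21 with both. All libraries with ATRA were at or below 26 RPKM and all others at or above 30. The log2 fold changes were -0.69 ± 0.13 SE (adjusted p 0.00316 in limma) and -0.72 ± 0.13 (adjusted p 0.0017). WDR12, which forms the PeBoW complex with PES1 and BOP1, had 20, 19 and 20 RPKM untreated, 17, 14 and 14 with ATRA and 16, 14 and 14 with both (log2 fold changes -0.39 ± 0.09, adjusted p 0.00893, and -0.42 ± 0.09, adjusted p 0.00424). Its partners had log2 fold changes of -0.24 (PES1) and -0.22 (BOP1) with ATRA and were not called.

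DDX18, an RNA helicase with 5 pseudogenes by name, had 50, 45 and 49 RPKM untreated, 41, 40 and 39 with ATRA, 44, 43 and 46 with palbociclib and 41, 39 and 38 with both. The fall was to 83.4% (adjusted p 0.00737 in limma) and 82% (adjusted p 0.00302). RRS1, which helps to place the 5S rRNA particle, had 47, 46 and 51 RPKM untreated and 35, 25 and 32 with ATRA (63.4% of untreated, adjusted p 0.00979), and 34, 24 and 31 with both. GRWD1 and MRTO4 were called with the combination at log2 fold changes of -0.25 and -0.46.

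The other 8 tested large subunit factors were not called against untreated cells. Among them NOP16 had 43, 39 and 45 RPKM untreated and 40, 25 and 27 with ATRA, so that replicate 1 overlapped the untreated range (log2 fold change -0.49 ± 0.21 SE, adjusted p 0.135 in limma). GNL3 (nucleostemin) had 103 to 109 RPKM untreated and 78 to 98 with ATRA, without overlap (adjusted p 0.0576). EBNA1BP2, NOC2L, DDX56 and PPAN had log2 fold changes with ATRA between -0.19 and -0.07. PPAN was near the filter at 3 to 7 RPKM, and 47.6% of its exonic length is shared with the read-through gene PPAN-P2RY11 on the same strand.

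**Figure D4:**
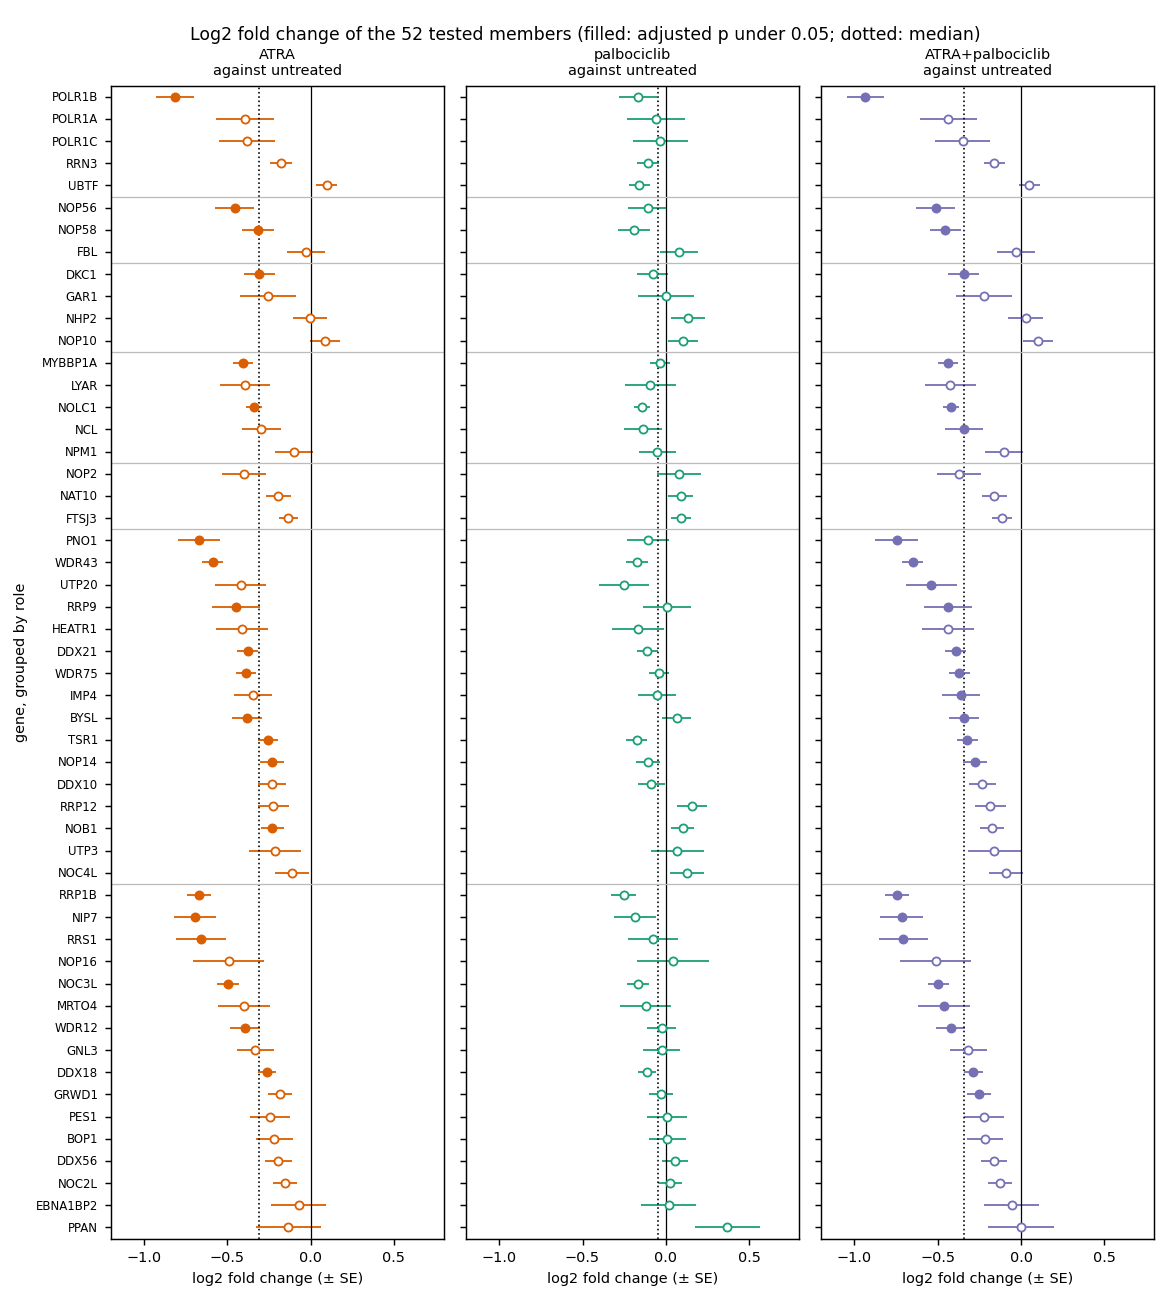
Log2 fold change ± SE against untreated cells (x axis) of the 52 tested factors (y axis, grouped by role) with ATRA, palbociclib and both; filled points have an adjusted p under 0.05 and the dotted line is the factors' median. There are 21 filled points with ATRA, 0 with palbociclib and 25 with both, and all filled points lie left of zero.

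Not every call was equally firm. POLR1B, NOLC1, MYBBP1A, WDR43, NOC3L and RRP1B were called with ATRA and with the combination under all 26 alternative settings, the strict threshold of 0.001 included. In GENCODE 44 (GRCh38) these protein-coding genes are POLR1B at chr2:112541915-112579818 (plus strand), NOLC1 at chr10:102152176-102163871 (plus strand), MYBBP1A at chr17:4538897-4555386 (minus strand), WDR43 at chr2:28894667-28948219 (plus strand), NOC3L at chr10:94333226-94362959 (minus strand) and RRP1B at chr21:43659560-43696079 (plus strand). Of the 21 ATRA calls, 13 held without any 1 library. BYSL lost its call without ATRA replicate 2 (adjusted p 0.0522 in limma) and TSR1 without ATRA replicate 2 or untreated replicate 1 or 3 (up to 0.0592). NOP56 lost it without ATRA replicate 2 or 3 or untreated replicate 1 or 3 (up to 0.0786), and NOP58 without the same libraries or palbociclib replicate 3 (up to 0.135). NOP14, DKC1, NOB1 and RRP9 lost it without any of 6 to 8 libraries of the 12, among them ATRA replicates 2 and 3, palbociclib replicate 3 and untreated replicates 1 and 3 for each (up to 0.164). Further libraries were untreated replicate 2 (NOP14, NOB1 and RRP9), combination replicate 3 (DKC1, NOB1 and RRP9), palbociclib replicate 2 (DKC1 and NOB1) and combination replicate 2 (RRP9).

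Of the 25 combination calls, 16 held without any 1 library. BYSL lost its call without combination replicate 2 (adjusted p 0.0526 in limma), and NOP14 without that library or untreated replicate 1 (up to 0.0567). DKC1 lost it without combination replicate 2 or 3 or untreated replicate 1 or 3 (up to 0.0726). UTP20 did so without combination replicate 1 or 3 or untreated replicate 1 or 3 (up to 0.0746), and GRWD1 without combination or untreated replicate 2 or 3 (up to 0.0815). IMP4, RRP9, NCL and MRTO4 lost it without combination replicate 2 or 3 or any untreated library (up to 0.1535), and the last 3 also without ATRA replicate 3 or palbociclib replicate 3. For NCL and MRTO4 this was so for palbociclib replicate 2 too.

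The factors' shift was smaller in replicate 1 of the ATRA-containing groups. The median over the factors of the difference from the untreated mean was -0.15, -0.40 and -0.33 in the 3 ATRA libraries and -0.16, -0.43 and -0.33 in the 3 combination libraries, against 0.06, -0.14 and -0.01 with palbociclib and 0.04, -0.06 and 0.02 in untreated cells. Each library with ATRA was thus below every library without it, but narrowly for ATRA replicate 1 (-0.153) against palbociclib replicate 2 (-0.141). The pooled SD between replicates of the factors' mean log2 value was 0.0949. With replicates 2 and 3 of each group only, a setting chosen after the data were seen, the factors below zero numbered 51 of 52 with ATRA and 50 with the combination.

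In treated cells, replicate 1 differed from replicates 2 and 3 along exonic gene length. Across the 52 factors, Spearman's rho between length and the difference of replicate 1 from the mean of the others was -0.58 with ATRA, -0.60 with palbociclib and -0.56 with both, against 0.08 in untreated cells, as a description over genes of the same libraries. Over 7795 tested genes with a length it was -0.49, -0.50, -0.44 and 0.16. Among the 17 shortest factors (up to 3.27 kb) the median log2 difference with ATRA was 0.31, and among the 17 longest (from 5.54 kb) it was 0.10. The longest factor, POLR1A (19.7 kb), was at -0.45, HEATR1 at -0.42 and UTP20 at -0.35, whereas DDX10 (18.1 kb) was at 0.15 and NPM1 (8.31 kb) at 0.30. The median log2 fold changes against untreated cells of the 17 shortest and the 17 longest factors were -0.31 and -0.31 with ATRA (6 and 7 called), -0.32 and -0.34 with the combination (6 and 10 called) and 0.04 and -0.09 with palbociclib (0 and 0 called). The part of gene length in these values was not tested.

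**Figure D5:**
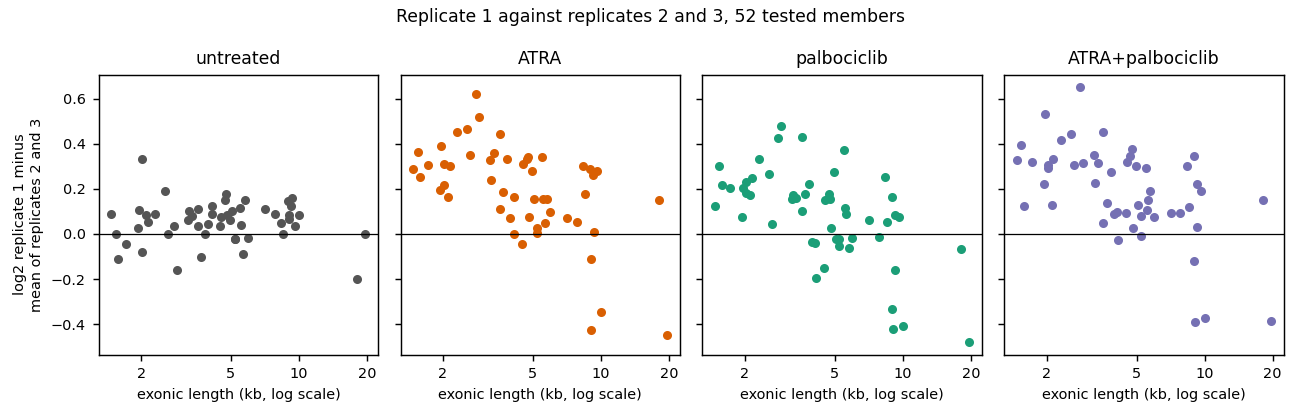
Log2 difference of replicate 1 from the mean of replicates 2 and 3 (y axis) against exonic length (x axis, kb, log scale) for the 52 tested factors, 1 panel per group. In the 3 treated groups the points fall from left to right (Spearman's rho -0.58, -0.60 and -0.56), and in untreated cells they do not (0.08).

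The wider pathway was read from a list of 123 other ribosome biogenesis genes, of which 115 were tested. ATRA lowered 40 (34.8%) and raised 0 of them, where 11.6% and 8.71% of all tested genes were called lower and higher. The combination lowered 49 (42.6%) and raised 2 (1.74%), against 17.7% and 12.7%, and set against palbociclib it lowered 28 (24.3%) and raised 0, against 6.64% and 5.86%. Palbociclib alone lowered EXOSC9 and POLR1E (1.74%) and raised DDX27 (0.87%), where 3.16% and 0.908% of all tested genes were called lower and higher. Between the combination and ATRA 0 were called by limma. At an unadjusted p under 0.05 it was 3 (2.61%), against 3.67% of all tested genes. The median log2 fold change of the 115 genes was -0.23 with ATRA and -0.21 with both, against -0.01 in each over all tested genes.

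Among the called genes of the wider list, TWISTNB, POLR1E, NUFIP1 and NAF1 had the largest falls with ATRA or with both. Their roles did not fall most as a whole. With the combination, 3 of 9 tested genes of Pol I transcription and 3 of 9 of snoRNP assembly were called lower. That was against 17.7% of all tested genes, and the medians were -0.17 and -0.15. For small and large subunit assembly it was 19 of 38 and 19 of 41, at medians of -0.27 and -0.25. TWISTNB, a Pol I subunit, had 25, 24 and 24 RPKM untreated, 14 in each of the 6 ATRA-containing libraries and 19, 22 and 22 with palbociclib (log2 fold change -0.79 ± 0.06 SE in both comparisons, adjusted p 9.23e-06 with ATRA and 6.72e-06 with both in limma). POLR1E, another subunit of Pol I, had 27, 27 and 30 RPKM untreated, 18, 16 and 17 with ATRA, 21, 23 and 22 with palbociclib and 15, 14 and 14 with both, so that the 4 groups did not overlap (-0.72 ± 0.07 with ATRA, adjusted p 3.53e-05 in limma, and -0.96 ± 0.07 with both, adjusted p 3.72e-06). NUFIP1, which assembles box C/D particles, had 9 RPKM in each untreated library, 6, 5 and 5 with ATRA and 6, 4 and 6 with both (-0.75 ± 0.15, adjusted p 0.00575, and -0.77 ± 0.15, adjusted p 0.00338). NAF1, which assembles box H/ACA particles, had 7, 6 and 6 RPKM untreated, 5, 4 and 4 with ATRA and 4, 3 and 3 with both (-0.54 ± 0.13, adjusted p 0.0139, and -0.92 ± 0.13, adjusted p 0.000437). At such low values 1 rounding step is a large part of the difference.

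The 2 genes of the wider list that rose with the combination were NOP53, listed under its older symbol GLTSCR2, and DDX27. NOP53, a large subunit factor, had 29 RPKM in each untreated library and 42, 35 and 36 with both agents (log2 fold change 0.37 ± 0.09 SE, adjusted p 0.0131 in limma). It had 39, 33 and 34 RPKM with ATRA alone and 39, 33 and 32 with palbociclib alone. DDX27, a helicase of the large subunit precursor, had 61 to 62 RPKM untreated and 66 to 69 with both (0.13 ± 0.04, adjusted p 0.0304). With ATRA alone DDX27 had 63 to 65 RPKM, and with palbociclib alone 69 to 71.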

How the data were processed

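RNA was sequenced in 12 libraries of HL-60 cells (4 groups of 3). From poly(A) libraries, the authors aligned reads by HISAT2 (hg38), obtained gene counts by htseq-count with default options and deposited RPKM rounded to whole numbers, here handled as a score in whole RPKM. Read counts were not used here, the depth of each single library is unknown beyond an average stated by the authors, and no counting error is given.

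Group means were estimated on log2(RPKM + 0.1) with limma 3.58.1 in R 4.3.3 (eBayes with a variance trend, 8 residual degrees of freedom) over genes that reached 5 RPKM in 3 or more libraries. Benjamini-Hochberg adjustment was made within each of 6 comparisons over all tested genes, at a threshold of 0.05 as in the study's statistics. The procedure was run on simulated data with independent noise in each library. The simulation had no deviations shared between libraries, so it does not cover those seen here. Gene models are GENCODE 44 and promoter windows RefSeq on GRCh38.p14. Tables and plots were made with Python 3.11.15.

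The members and lists were chosen with earlier results of these data known. By rule, called members have full statistics (at most 5 per role, by adjusted p under the combination), as have MYC and the 3 called genes of the wider list with the largest change in each direction. Other values, and the 12 factors plotted, were picked after they were seen. Same-numbered libraries deviated together between treated groups (correlation across genes 0.438 to 0.908), while between untreated and treated groups it was 0.0453 to 0.367 and not above 0.1 in every pair. Libraries of different numbers were not compared, and replicate 1 stood apart in each treated group. These correlations therefore do not show that the number pairs libraries, and the block is given only as an alternative. The 26 alternatives covered the pseudocount, filter, scaling, variance model, samples fitted, block, threshold and each library left out.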

Additional observations from a re-analysis of the deposited data

How the results depend on the processing

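No called factor changed direction under any of the 26 alternatives. Numbers of called factors moved as follows. At an adjusted p under 0.001, 6 were lower with ATRA, 6 with the combination and 1 between the combination and palbociclib, and of the wider list 10, 14 and 5, with 0 under palbociclib. Over all tested genes 1.94%, 4.28% and 0.997% were lower in those comparisons, and 0.486% with palbociclib. Median centring left 13 lower with ATRA and 15 with the combination, 21, 2 and 22 without overlap with ATRA, palbociclib and both, and 0 and 32 of the wider list with palbociclib and both. Of all tested genes, 14.6%, 6.51% and 16.8% were then lower without overlap with ATRA, palbociclib and both, and 6.84%, 1.29% and 10.1% were called lower. Under median centring 48 factors with ATRA and 46 with the combination still lay below zero. It moved the median of all genes to 0.03 with ATRA and 0.07 with the combination, and the calls over all genes from 909 lower and 681 higher to 535 and 696 with ATRA, and from 1381 and 996 to 793 and 1152 with both. Upper quartile scaling gave 728 and 827 with ATRA and 1186 and 1244 with both, and 1 factor higher between the combination and palbociclib, where 5.58% of all tested genes were.

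With the replicate number as a block, 41 factors were lower and 1 higher with ATRA, 6 lower with palbociclib, 40 with the combination, and 36 lower and 1 higher between the combination and palbociclib, and in the wider list 68, 12 and 49 were lower with ATRA, with palbociclib and between the combination and palbociclib. Over all tested genes the block called 20.7% lower and 14.7% higher with ATRA, 8.13% lower with palbociclib and 25.5% with the combination. The number was not shown to pair libraries, and untreated and treated libraries deviated together least, so the block is only a hint. In fits of the compared groups only, which the departure from additivity does not allow, 8 factors and 15 of the wider list were lower between the combination and palbociclib, and 0 of the list with palbociclib. Over all tested genes 3.76% and 1.88% were lower in these comparisons. With replicates 2 and 3 alone, chosen after the data were seen, palbociclib had 1 factor lower and 1 higher (3.82% and 2.62% of all tested genes). It had 14 lower without overlap (18.6% of all tested genes) and 9 lower in the wider list. Of that list, 2 were lower between the combination and ATRA, against 0.908% of all tested genes. For the departure from additivity it was 1, against 1.23%. The stricter threshold can only reduce the calls, by construction, and the cause of the other changes was not tested.

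Leaving out 1 library at a time gave 13 (without ATRA replicate 2) to 29 factors lower with ATRA, 17 to 29 with the combination, 8 to 25 lower and 0 to 1 higher between the combination and palbociclib, and 4 to 14 lower without overlap for palbociclib (14 without palbociclib replicate 1). Over all tested genes the lower calls ran from 7.53% to 12.9% with ATRA and from 13% to 18.8% with the combination. Between the combination and palbociclib they ran from 4.08% to 7.23% (higher 4.21% to 6.1%). Lower without overlap for palbociclib were 9.48% to 15.2%. In the wider list, leaving out 1 library gave 0 to 2 lower with palbociclib, where 1.8% to 3.01% of all tested genes were. Between the combination and palbociclib it gave 14 to 37. The median departure from additivity ran from -0.06 to 0.11 and reversed without combination replicate 1 (-0.0592). Rounding to whole RPKM limits the precision of low factors such as PPAN, and 3 libraries per group limit the smallest changes that can be called.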
